A study of Mus musculus with 15 samples.

Results

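Major urinary proteins are small secreted lipocalins, barrel-shaped carriers that hold volatile pheromones. In mice they are made mainly in the liver, pass from the blood into the urine and act there as scent signals. Their liver transcription is known to depend on pulsatile growth hormone acting through STAT5, on androgens, thyroid hormone and glucocorticoids, and it is usually higher in males than in females. The question here was how their transcripts read in heart RNA of mice of both sexes given methamphetamine (meth) or phosphate-buffered saline (PBS).

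The transcripts looked for were those of Mup1, Mup2, Mup3, Mup4, Mup5 and Mup6. Members were all non-control probes of the array whose transcript accession belongs to one of these 6 genes in RefSeq. This gave 5 of 41174 probes, 1 each for Mup1 (A_51_P461703), Mup3 (A_52_P232508), Mup4 (A_51_P266883), Mup5 (A_52_P412506) and Mup6 (A_52_P387467). No probe matched Mup2. The 5 genes are among the 18535 genes with a matched probe, and no other gene of the Mup family had one. All 5 probes passed the filter on low signal, Mup3 and Mup5 through female arrays alone and Mup6 through the 4 female meth arrays alone. The genes were chosen by the normalized signals and background flags of these arrays in the 4 groups, so the levels and the differences between the 4 groups are given below as a description. Where probes past the threshold of the main fit over all probes are counted, the share of all tested probes stands beside them. Under other settings, totals over all probes stand beside some counts only. Nothing is read from the counts in any of the comparisons.

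The hearts came from C57BL/6 mice, 8 to 10 weeks old at the start and alive after 5 months of weekly intraperitoneal injections. The paper reports early deaths in meth males only, the majority of whom died before the end. Male meth hearts thus came from the survivors of their group, while no other group lost mice. Meth mice received methamphetamine hydrochloride in PBS, with the dose raised by 2 mg each week over 20 weeks to 40 mg/kg, and control mice received PBS on the same schedule. There were 3 arrays of female PBS hearts, 4 of female meth hearts, 4 of male PBS hearts and 4 of male meth hearts, with 1 mouse to an array. Males came from 2 trials with 2 mice of each treatment in each, and the sample titles put all females in trial 1, although another label puts female meth 3, female meth 4 and female PBS 3 in trial 2. No allele other than the strain's own was involved, and whole heart tissue was homogenized, so a change in a cell type's number and a change in its RNA per cell cannot be told apart.

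The Mup genes lie side by side on chromosome 4, where the RefSeq table (GRCm38.p6) holds 24 coding Mup genes and 21 Mup pseudogenes between 59956804 and 62150841. Mup4 is at chr4:59956804-59960667, Mup6 at chr4:60003481-60007274, Mup2 at chr4:60135913-60139977, Mup1 at chr4:60498012-60501960, Mup5 at chr4:61831319-61858043 and Mup3 at chr4:62083476-62087317. Copies this alike can bind each other's probes. Each probe is therefore reported apart and named for the transcript its accession gives, and its signal may hold RNA of other copies. The probes' own sequences were not used here.

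The promoters of Mup3, Mup4 and Mup6 are alike too. They are shown because Mup4 and Mup6 differed one way between the female treatments and Mup3 did not. Whether the promoters bear on those differences was not tested, and their likeness does not measure how transcripts bind the probes. The 250 bases before the annotated start are given from RefSeq (GRCm38.p6), 5′ to 3′ on the gene's strand, for Mup3 (chr4:62087318-62087567, minus strand), Mup4 (chr4:59960668-59960917, minus strand) and Mup6 (chr4:60003231-60003480, plus strand). Capitals mark TATATAA, the letters of a common core promoter element.
Mup3: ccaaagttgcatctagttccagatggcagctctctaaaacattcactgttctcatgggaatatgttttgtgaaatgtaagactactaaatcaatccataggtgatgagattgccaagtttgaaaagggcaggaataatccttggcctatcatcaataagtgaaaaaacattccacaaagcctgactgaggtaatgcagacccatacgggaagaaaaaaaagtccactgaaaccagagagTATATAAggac
Mup4: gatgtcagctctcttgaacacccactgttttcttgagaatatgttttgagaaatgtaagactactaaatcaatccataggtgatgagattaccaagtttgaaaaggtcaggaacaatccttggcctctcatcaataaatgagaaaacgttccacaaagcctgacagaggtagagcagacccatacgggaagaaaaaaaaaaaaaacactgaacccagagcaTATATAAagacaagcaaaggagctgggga
Mup6: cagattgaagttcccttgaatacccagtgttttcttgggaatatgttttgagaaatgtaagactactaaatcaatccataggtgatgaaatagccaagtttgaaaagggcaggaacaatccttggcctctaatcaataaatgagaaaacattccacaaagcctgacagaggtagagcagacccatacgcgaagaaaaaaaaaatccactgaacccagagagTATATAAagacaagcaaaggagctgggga
The motif was searched on both strands and occurred once in each of the 3, on the gene's strand, starting 11 bases before the annotated start in Mup3 and 29 bases before it in Mup4 and Mup6. It was present on either strand in 998 of 32851 mouse promoters of that length (3.04%). Over 248 aligned bases, the Mup4 and Mup6 promoters were 92.3% identical. Mup3 shared 88.7% of 229 aligned bases with Mup4 and 88.3% of 231 with Mup6. Promoters of Mup1, Mup2 and Mup5 are not printed.

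Signals are given as normalized log2 signal, on which 0 is the 75th percentile of the array's non-control probes and 1 unit is a doubling. A spot counted as well above background where the scanner software flagged it so. A probe below that mark on all arrays of a group has only a bound there. In such cases "at least N-fold" compares the mean of the group with signal with a ceiling for the group without: on each array of the latter the ceiling is the probe's own signal or the lowest well-above-background signal of that array, whichever was higher, and these are averaged. No spot was saturated, and each array had between 61.4% and 71.4% of its probes well above background. Xist was well above background on all 7 female arrays and on no male array, and the 4 Y-linked genes on the 8 male arrays only, so the sex labels held. All 8 cardiomyocyte markers were well above background on all 15 arrays.

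Mup transcripts were read in every female heart and were faint or below background in male hearts. In female PBS hearts, Mup1, Mup3, Mup4 and Mup5 were well above background on 3 of 3 arrays and Mup6 on none. In female meth hearts all 5 probes were well above background on 4 of 4 arrays. In male PBS hearts no Mup probe was well above background on any of the 4 arrays. In male meth hearts Mup1 and Mup4 were well above background on 4 of 4 arrays, and Mup3, Mup5 and Mup6 on none.

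**Figure D1:**
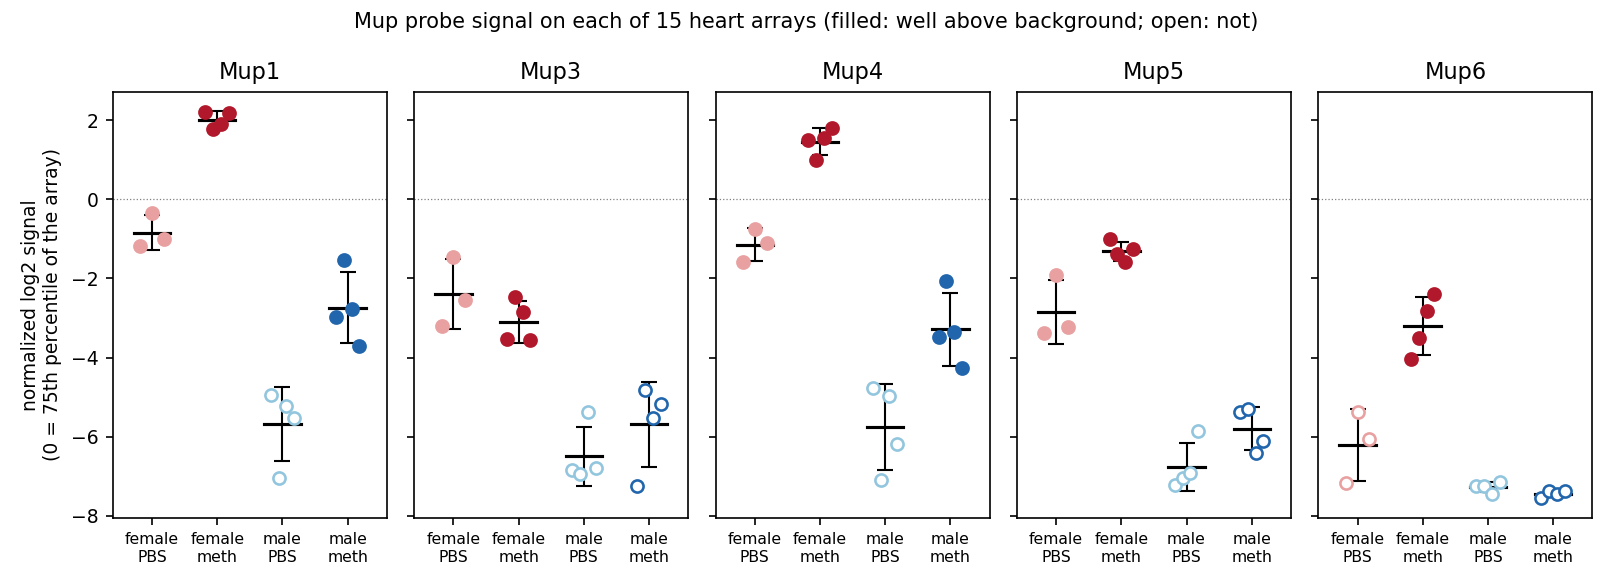
Normalized log2 signal of each Mup probe (vertical axis) on each of the 15 arrays by group, with the group mean and SD as bars; filled points were well above background and open points were not. Mup1 and Mup4 sit highest in female meth hearts and lowest in male PBS hearts, Mup3 is alike in both female groups, and Mup6 is filled in female meth hearts only.

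Mup1, which encodes one of the abundant urinary pheromone carriers, was at -1.19, -0.35 and -0.997 in female PBS replicates 1 to 3. In female meth replicates 1 to 4 it was at 2.19, 1.78, 1.89 and 2.18. Every female meth array lay above every female PBS array. In males it was at -4.94 and -7.04 (trial 1) and -5.22 and -5.52 (trial 2) with PBS, all below background. With meth it was at -2.98 and -1.54 (trial 1) and -2.77 and -3.70 (trial 2), all well above background and all above the male PBS arrays. The order of the groups was thus female meth (2.01 ± 0.21, SD, n = 4), female PBS (-0.84 ± 0.44, n = 3), male meth (-2.75 ± 0.90, n = 4) and male PBS (-5.68 ± 0.94, n = 4), and no neighbours in it overlapped.

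Mup4, whose product is known from nasal and other glands as well as from liver, followed the same order. It was at -1.59, -0.74 and -1.11 in female PBS hearts. It was at 1.49, 1.00, 1.54 and 1.80 in female meth hearts. Again the female groups did not overlap. Male PBS hearts were at -4.78, -7.09, -4.96 and -6.19 (trial 1 replicates 1 and 2, then trial 2). Male meth hearts were at -3.48, -2.06, -3.36 and -4.26 in that order. The male groups did not overlap either, and the highest male meth array, trial 1 replicate 2, was the same for Mup1 and Mup4.

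Mup5, a copy nearer the other end of the cluster than Mup4, was at -3.39, -1.91 and -3.23 in female PBS hearts. It was at -1.01, -1.39, -1.58 and -1.24 in female meth hearts. The female groups were apart, with female PBS replicate 2 the closest to the meth arrays. All 8 male arrays were below background, between -7.23 and -5.86 with PBS and between -6.41 and -5.30 with meth, and these ranges overlapped.

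Mup6, a copy whose gene lies near that of Mup4, was at -7.18, -5.36 and -6.07 in female PBS hearts, all below background. In female meth hearts it was at -4.04, -3.51, -2.83 and -2.39, all well above it. The female groups did not overlap. The 8 male arrays lay between -7.56 and -7.15, all below background and below 6 of the 7 female arrays. The exception was female PBS replicate 1.

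Mup3, whose annotated gene is the farthest from Mup4 among the members, had another pattern. It was at -3.19, -1.45 and -2.56 in female PBS hearts. It was at -3.54, -2.47, -2.84 and -3.56 in female meth hearts. These groups overlapped, and the female PBS mean (-2.40 ± 0.88, n = 3) was above the female meth mean (-3.10 ± 0.54, n = 4). Male arrays were all below background, from -6.95 to -5.38 with PBS and from -7.24 to -4.81 with meth, and all were below every female array.

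Across the 15 arrays the Mup1 and Mup4 signals had a Pearson r of 0.996. The r of the deviations from their group means was 0.95. Mup1 had an r of 0.94 with Mup5, 0.85 with Mup6 and 0.80 with Mup3. Over the 7 female arrays alone, Mup1 had an r of 0.99 with Mup4, 0.93 with Mup5 and 0.94 with Mup6, whereas the r of Mup3 with the other 4 lay between -0.45 and -0.17. Over the deviations of all 15 arrays from their group means, where treatment and sex no longer enter, Mup1 had an r of 0.39 with Mup5, 0.34 with Mup3 and 0.17 with Mup6. The points share their arrays and the probes may share targets, so these values describe the arrays only.

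The first comparison asked how meth and PBS hearts differed in females. From a limma fit over all 28358 tested probes, with the trial as a covariate, the log2 difference of female meth minus female PBS was 2.86 ± 0.51 (SE) for Mup1, a fitted 7.24-fold higher signal. It was 2.60 ± 0.56 for Mup4 (6.08-fold) and 1.53 ± 0.41 for Mup5 (2.89-fold). For Mup6 the log2 difference was 3.01 ± 0.40, and the signal was at least 4.28-fold higher with meth, since the PBS arrays give only a bound. For Mup3 it was -0.70 ± 0.56. Mup1 and Mup6, 2 of the 5 probes, were higher past an adjusted p of 0.05 (limma, Benjamini-Hochberg over all probes), beside 0.205% of all tested probes. The groups did not overlap, with meth higher, for 4 of the 5 probes and for 3.15% of all tested probes. When meth and PBS arrays of the same number were paired (replicate block), 1 of the 5 probes, Mup6, was past the threshold. Over all 28358 tested probes 107 were past it there, in either direction.

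Arrays were on 4 slides, and within each slide that held both female treatments the same 4 probes were higher with meth. For Mup1 the meth minus PBS difference was 3.38 on slide 1, 2.12 on slide 2 and 3.04 on slide 4. For Mup6 it was 3.13, 1.85 and 3.46. Mup4 gave 3.08, 1.75 and 2.77, and Mup5 gave 2.37, 0.52 and 1.81. For Mup3 it was negative on each slide, from -1.02 to -0.35. The smallest difference of these 4 probes was on slide 2 each time, where female PBS replicate 2, the highest PBS array for all 5 probes, was hybridised.

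The same question was put to male hearts. The log2 difference of male meth minus male PBS was 2.93 ± 0.48 for Mup1, at least 4.72-fold higher with meth. For Mup4 it was 2.47 ± 0.52, at least 3.05-fold higher. For Mup5 it was 0.97 ± 0.38, for Mup3 0.80 ± 0.51 and for Mup6 -0.17 ± 0.37, with both male groups below background for these 3 probes, so that no fold is given. Mup1 and Mup4 were higher past an adjusted p of 0.05 (limma), beside 0.8% of all tested probes, and their male groups did not overlap, which held for 4.68% of all tested probes with meth higher. With the replicate block 0 of the 5 probes were past the threshold, beside 257 of all 28358 tested probes in either direction.

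The male difference varied with the slide. For Mup1 it was 1.96 on slide 1, 5.50 on slide 2 and 2.14 on slide 3, which held trial 2. For Mup4 it was 1.30, 5.04 and 1.77. Slide 2 held both the highest meth array and the lowest PBS array for these 2 probes. By trial, Mup1 differed by 3.73 in trial 1 and 2.14 in trial 2, and Mup4 by 3.17 and 1.77.

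The male minus female difference of the meth effect was 0.078 ± 0.70 for Mup1, -0.14 ± 0.76 for Mup4, -0.56 ± 0.56 for Mup5, 1.51 ± 0.76 for Mup3 and -3.18 ± 0.55 for Mup6 on the log2 scale. Of the 5 probes, 0 passed an adjusted p of 0.05 (limma), beside 0.138% of all tested probes, and 1, Mup6, had an unadjusted p under 0.05, beside 8.11% of all tested genes. Male Mup6 was below background in both groups, so its male effect is not a measured one. For Mup1 and Mup4 the male PBS arrays were below background, so their male effects are bounds as well. With normexp background correction the Mup1 difference was 2.52 in females and 0.68 in males, and Mup1 passed the threshold. That setting adds an offset of 50 to every signal, which draws low signals together. Male Mup1 signals as extracted ran from 2.42 to 10.9 with PBS and from 24.0 to 120 with meth. Female ones ran from 137 to 295 and from 1052 to 2157. The normexp value therefore does not show that the meth effect was larger in females.

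The sexes were then compared within each treatment. With PBS, Mup1 was at least 17.7-fold higher in female hearts, with a male minus female log2 difference of -4.75 ± 0.57. Mup4 was at least 13.5-fold higher in females (-4.44 ± 0.61), Mup3 at least 6.01-fold (-4.46 ± 0.61) and Mup5 at least 4.43-fold (-3.88 ± 0.45). Mup6 was below background in both sexes, and its groups overlapped. The other 4 probes were lower in males past an adjusted p of 0.05 (limma), beside 0.293% of all tested probes, though Mup4 was not with the replicate block, and their groups did not overlap, which held for 7.88% of all tested probes with males lower.

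With meth, Mup1 was 25.5-fold lower in males than in females (log2 difference -4.67 ± 0.53) and Mup4 23.8-fold lower (-4.58 ± 0.58), both measured on each side. Females were higher by at least 14.3-fold for Mup5 (-4.44 ± 0.43), at least 3.91-fold for Mup3 (-2.96 ± 0.57) and at least 3.87-fold for Mup6 (-4.24 ± 0.42). All 5 probes were lower in males past an adjusted p of 0.05 (limma), beside 1.44% of all tested probes. None of the 5 overlapped between the sexes, as for 6.73% of all tested probes with males lower. On the 2 slides that held both sexes, the Mup1 difference was -3.75 and -6.70 with PBS and -5.18 and -3.32 with meth. For the other 4 probes it ran from -6.35 to -0.065 with PBS and from -4.97 to -2.34 with meth.

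**Figure D2:**
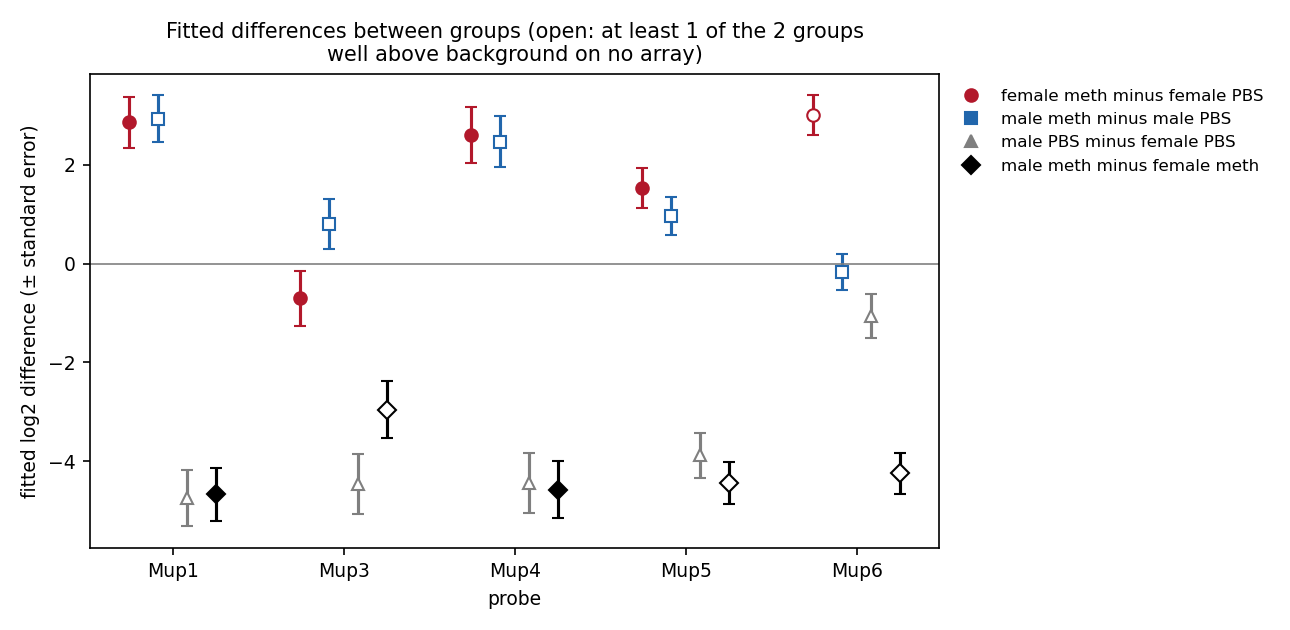
Fitted log2 differences (vertical axis) with standard errors for the 5 probes in 4 comparisons; open symbols mark comparisons in which at least 1 group was well above background on no array. Both treatment differences of Mup1 and Mup4 lie between 2.47 and 2.93, and both sex differences of Mup1, Mup4 and Mup5 lie between -4.75 and -3.88.

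Genes of the pathways that set Mup levels in liver were then examined. Of 14 tested regulators, among them the growth hormone receptor Ghr, Jak2, Stat5a, Stat5b and the thyroid hormone receptors Thra and Thrb, 0 passed an adjusted p of 0.05 (limma) in the female, the male or the PBS sex comparison, and 1, 3 and 3 had an unadjusted p under 0.05. Over all tested genes that p was reached by 7.79% with meth in females, 13.2% with meth in males and 15.3% between the sexes with PBS. These shares stand beside the unadjusted counts of every list below as well. The regulators' median log2 difference was 0.040 with meth in females, -0.061 with meth in males and 0.10 between male and female PBS hearts. The medians over all 14309 tested genes were 0.027, -0.019 and 0.013. Over those genes, 34 passed as higher and 28 as lower with meth in females, and 150 and 41 in males. Thra, a nuclear receptor for thyroid hormone, differed by -0.32 in females and -0.27 in males with meth, and Cish, a target of STAT5 that damps cytokine signals, by -0.25 and -0.27.

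Of 10 tested lipocalins outside the Mup family, 0 passed in either meth comparison, with medians of 0.20 in females and 0.24 in males, and 3 and 4 had an unadjusted p under 0.05 (limma). Those with the highest mean signal were Ptgds, a prostaglandin D synthase of the lipocalin fold (0.028 in females and -0.47 in males), and Rbp4, the retinol carrier of plasma (0.56 and 0.76).

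Most genes for plasma proteins made in liver lay the other way from Mup1 in females. Of 14 tested, 0 passed with meth in females, where 12 of the 14 were lower and the median was -0.61. In males 0 passed with meth, and the median was -0.22. In each sex 1 of the 14 had an unadjusted p under 0.05 (limma). This was Ahsg, with a log2 difference of 0.75 in females and 0.78 in males, higher with meth. In male against female PBS hearts all 14 were lower, with a median of -1.84, and 4 passed as lower: Alb, Ambp, Apoh and Fgb, all below background in male hearts. Over all tested genes, 45 passed as lower and 33 as higher there.

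Albumin (Alb), the main plasma protein, shows where Mup1 and Mup3 part. Alb was picked after its values were seen. It was at -3.07, -0.96 and -2.07 in female PBS hearts and at -3.39, -2.40, -2.52 and -3.62 in female meth hearts. It was below background on all 8 male arrays, and it was at least 7.75-fold higher in female than in male PBS hearts (adjusted p = 0.0014, limma). Ranked from the highest, the 7 female arrays stood in one order for Mup3 and Alb except that female meth 2 and female PBS 3 changed places. The female PBS array with the highest Mup3 (-1.45) also had the highest Alb and the highest Ambp (-1.97), the precursor of another plasma lipocalin. For Mup1, in contrast, the 4 female meth arrays held the first 4 places and the 3 PBS arrays the last 3.

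The whole plasma protein list was present in part only. Summed on a linear scale with the 75th percentile of an array as 1, its 18 genes came to between 3.54 and 5.02 in female PBS hearts, 5.03 and 7.33 in female meth, 2.42 and 2.82 in male PBS and 3.72 and 4.94 in male meth hearts. The gene of the list with the highest mean signal was Ahsg, for the plasma protein fetuin-A, at 1.61 in female PBS, 2.36 in female meth, 1.13 in male PBS and 1.91 in male meth hearts (mean normalized log2 signal). It had the direction of Mup1 and not of Alb: the female meth arrays, at 2.73, 2.02, 2.01 and 2.67, all lay above the female PBS arrays, at 1.48, 1.47 and 1.88. Ahsg made up most of each sum, so the sums mainly follow this gene and not the list as a whole. Of the 18 genes, 16 were well above background on at least 1 female PBS array and 14 on at least 1 female meth array, against 5 in each male group. The part of this in the Mup signals was not tested.

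Liver genes known to differ between the sexes, as Mup genes do, were looked at next. Of 4 tested genes that liver holds more of in males, 0 passed in females with meth (median -0.10) and 1 in males (median 0.68). This was Cyp4a12a, a fatty acid hydroxylase, at least 2.50-fold higher (adjusted p = 0.0376, limma), with the male PBS arrays below background. At an unadjusted p under 0.05 (limma) the counts were 0 in females and 2 in males. Cyp2d9, a steroid hydroxylase, differed by -0.11 in females and 0.21 in males with meth. Of 5 tested genes that liver holds more of in females, 0 passed in females with meth (median 1.1), and 3 had an unadjusted p under 0.05 (limma). The P450 genes Cyp2b9 and Cyp2b13 differed by 1.51 and 1.69 with meth in females (adjusted p = 0.091 and 0.056, limma). Cyp3a41a was below background in male hearts and at least 2.61-fold higher in female than in male PBS hearts (adjusted p = 0.010, limma).

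Markers of other tissues that could adhere to an excised heart were examined as well. All 6 tested white fat genes had a positive difference with meth in both sexes, with medians of 1.27 in females and 1.08 in males. Only the adipokine gene Cfd (adipsin) passed, in males (1.44, adjusted p = 0.044, limma), and it differed by 1.37 in females (adjusted p = 0.083). At an unadjusted p under 0.05 (limma) the counts were 5 of 6 in females and 4 of 6 in males. The sum over the 7 white fat genes ran from 161 to 218 in female PBS, 206 to 335 in female meth, 174 to 258 in male PBS and 205 to 416 in male meth hearts. Of the 7 genes Fabp4 had the highest mean signal in each group, from 7.29 to 7.56. It differed by 0.16 in females and 0.098 in males with meth, so the sums rest largely on a gene with small differences. Lep, for leptin, was well above background on 1 of the 15 arrays. In each sex the array with the highest Cfd was a meth array with the highest Mup1 of its sex, female meth 1 and male meth trial 1 replicate 2. For the 3 brown fat genes 0 passed in either sex, with medians of 0.12 and 0.14, and 0 had an unadjusted p under 0.05 (limma).

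Of the 10 airway secretory genes, 2 passed as higher with meth in females (Bpifa1 and Reg3g, median of the 10 genes 0.90) and 10 in males (median 7.74). Bpifa1, Cyp2a5 and Reg3g were below background in male PBS hearts and at least 898-fold, 272-fold and 108-fold higher with meth. Scgb1a1, well above background on 2 of the 4 male PBS arrays, had a log2 difference of 9.29. Summed, the 10 genes ran from 1.72 to 3.41 in female PBS, 1.32 to 4.52 in female meth, 0.551 to 0.636 in male PBS and 40.6 to 212 in male meth hearts. The sum was highest on male meth trial 1 replicate 2, which also had the highest Mup1. The next was trial 2 replicate 2 at 79.5, the male meth array with the lowest Mup1. Over all male arrays, the log2 of the sum had a Pearson r of 0.89 with the mean of the Mup probes. Over the female arrays this r was 0.19. Both values include the difference between the treatments. In females 8 of the 10 genes had a positive difference with meth and 2 a negative one. The club cell secretoglobin Scgb1a1 was 1 of those 2, with a log2 difference of -1.48. Of 2 tested salivary and lacrimal genes, 0 passed in females and 1 in males, the water channel Aqp5, below background in male PBS hearts and at least 8.06-fold higher with meth (adjusted p = 0.0019, limma). The other 6 genes of that list on the array were not tested, being below background on nearly all arrays. The part of fat, airway or gland tissue in the Mup signals was not tested.

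For the 8 cardiomyocyte genes 0 passed with meth in either sex, with medians of 0.028 and -0.086, and 0 had an unadjusted p under 0.05 (limma). Their sum ran from 2982 to 3862 in female PBS, 3179 to 3822 in female meth, 3855 to 4324 in male PBS and 3592 to 4182 in male meth hearts.

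**Figure D3:**
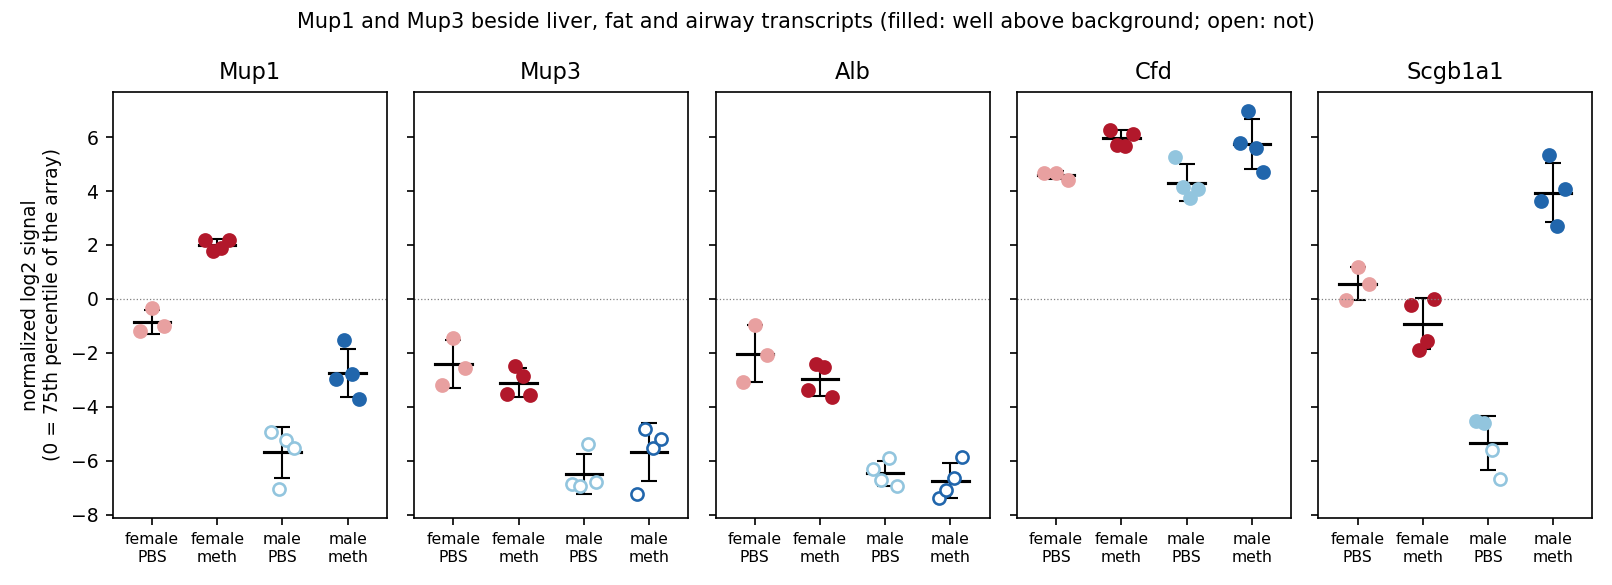
Normalized log2 signal (vertical axis) of Mup1 and Mup3 beside albumin (Alb), the fat transcript Cfd and the airway transcript Scgb1a1 on each of the 15 arrays, with group mean and SD; filled points were well above background. Mup3 and Alb overlap between the female treatments and are open in all 8 male hearts, while the female Mup1 and Cfd groups do not overlap and Scgb1a1 is highest in male meth hearts.

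**Figure D4:**
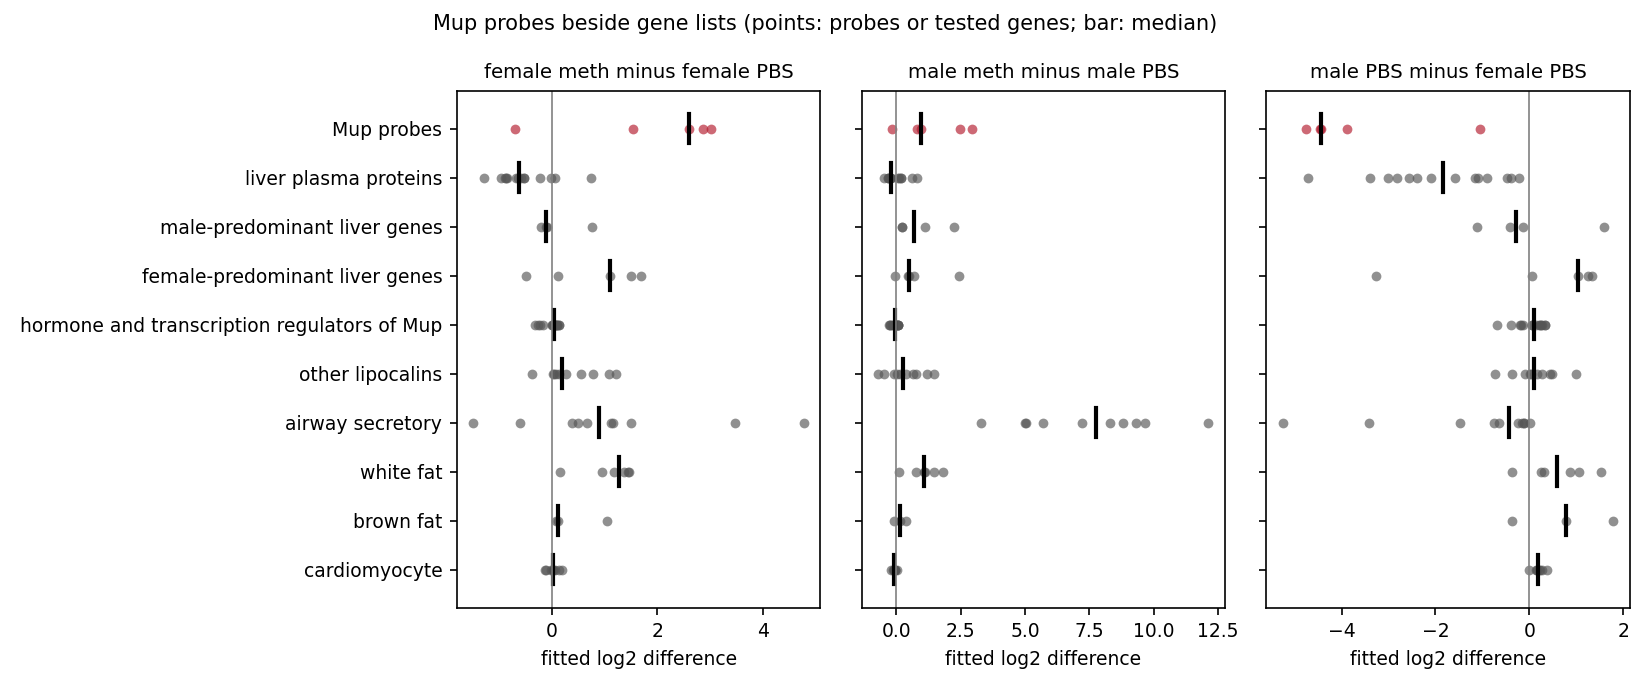
Fitted log2 differences (horizontal axis, with its own range in each panel) of the 5 Mup probes and of the tested genes of 9 lists, 1 point each, with the median as a bar, for meth minus PBS in females and males and for male minus female PBS hearts. The Mup medians stand at 2.60, 0.97 and -4.44, and the medians of the liver plasma proteins at -0.61, -0.22 and -1.84. Probes below background in a group are drawn at their fitted value.

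Genes with the pattern most like the mean of the 5 Mup probes over the 15 arrays were sought across all tested genes. The 10 with the highest Pearson r were Trpv4 (0.918), Cd55 (0.916), Tubb2b (0.916), Xist (0.908), Kdm5c (0.904), Tmod3 (0.903), S100a10 (0.900), Kitl (0.894), Fgd5 (0.885) and Tsix (0.883). Xist, Tsix and Kdm5c are X-linked genes known to be read more from female cells, and within the 7 female arrays the r of Xist was -0.21, that of Tsix -0.13 and that of Kdm5c 0.12. Fgd5, an endothelial exchange factor, had an r of 0.90 within the female arrays and 0.11 within the 8 male arrays. Trpv4, a calcium channel, had 0.73 and 0.67. None of the 10 passed an adjusted p of 0.05 (limma) with meth in either sex. These values describe 15 arrays on which the sexes stand apart.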

How the data were processed

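RNA of 15 mouse hearts was labelled with Cy3 and hybridised to 1-colour Agilent arrays. The deposited scanner files hold, per spot, a background-subtracted intensity that the authors extracted with Agilent Feature Extraction (9.1 per the processing notes, 10.5.1.1 per the file headers), together with flags for saturated, outlier and well-above-background spots, which were taken as other values. No normalization across arrays was applied to them. A further deposited table gives log2 values, found here to be the log2 signal of a probe shifted by 1 constant per array, and served as an alternative.

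Non-control spots without an outlier flag were averaged per probe as log2 values, from which the array's 75th percentile was subtracted. Testing was limited to 28358 probes with a well-above-background flag on 3 or more arrays. Depth here means signal over background, and precision is limited by how many arrays there are. Genes were named by matching accessions to RefSeq (GRCm38.p6), which gave a symbol for 27196 of 41174 probes. Accessions of 3468 probes differ between slide 4 and the other slides, and those of the Mup probes do not. Where a list gene had several probes, that of highest mean signal stands for it.

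All 15 arrays entered 1 limma 3.58.1 fit (lmFit, eBayes, R 4.3.3) with the 4 groups and the trial from the titles. Two-sided p-values were adjusted by Benjamini-Hochberg over all tested probes, with a threshold of 0.05. The members and gene lists were chosen with earlier results of these data known. Named were the Mup probes, the 10 genes most like them, and of each list the members that passed in a meth comparison (at most 4) or, where fewer than 2 passed, those 2 with the highest mean signal, of which some are not reported here. The lists were liver plasma proteins, male- and female-predominant liver genes, regulators of Mup, other lipocalins, airway secretory, salivary and lacrimal gland, white fat, brown fat, cardiomyocyte and sex-linked genes.

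The replicate block paired arrays by replicate number. When group means were removed, a meth array and the PBS array of its number had an r between 0.17 and 0.62 in all 7 pairs, each on 1 slide. Arrays of unlike number were not compared, so pairing by number cannot be told apart from a shared slide. The fit was checked on simulated data. Alternatives were other background corrections, normalizations, filters, floors, trial, slide and replicate terms, subsets of arrays and the methods' t-test. Promoters were aligned with Biopython 1.88, and plots drawn with matplotlib 3.10.9 in Python 3.11.15.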

Additional observations from a re-analysis of the deposited data

Results flagged for a closer look

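In male PBS hearts the Mup3 signal of trial 2 replicate 1 was -5.38 on the normalized log2 scale, while the other 3 arrays lay between -6.95 and -6.79, so that this array stood apart from its group. All 4 values were below background. The limit used to mark such an array (Dixon's test) marks about 1 in 20 groups by chance.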

How the results depend on the processing

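The direction of each log2 difference within a sex was kept under all alternatives that gave one: positive for Mup1, Mup4, Mup5 and Mup6 and negative for Mup3 in females, and positive for Mup1, Mup3, Mup4 and Mup5 and negative for Mup6 in males. Normexp background correction, with its offset of 50, shrank the differences of dim probes. They fell to 0.90 for Mup6 in females and to 0.68 for Mup1, 0.57 for Mup4 and 0.044 for Mup5 in males. The cause of the other changes was not tested.

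The number of the 5 probes past the threshold with meth in females, 2 in the report, was 1 (Mup6) without the filter, with the replicate block and in trial 1 arrays alone, and 0 by the methods' t-test, paired or unpaired, after Benjamini-Hochberg. With normexp and in the 2 female groups alone it stayed 2, but the probes were Mup1 and Mup4, and Mup6 was no longer past the threshold. Leaving out 1 array gave 1 to 3, and 1 (Mup6) without any one female array. In males, 2 in the report, it was 1 (Mup1) with quantile normalization, without the filter and with the slide as a block, and 0 with normexp, with the replicate block, in trial 1 alone, in the 2 male groups alone and by both t-tests. Leaving out 1 array gave 1 to 2, and 1 (Mup1) for 13 of the 15 arrays. For the difference between the sexes in the meth effect, 0 in the report, it was 1 (Mup1) with normexp and 1 (Mup6) with a median shift, without the trial, with the trial of the other label and with the slide as a block, and 0 to 1 without 1 array, the 1 being Mup6 without female meth 1 or female PBS 2. Between the sexes with PBS, 4 in the report, it was 2 (Mup1 and Mup4) with normexp, 0 in those 2 groups alone and 4 without any one array. With meth, 5 in the report, it was 3 with normexp and 4 to 5 without 1 array. The replicate block changed no other count by over 1.5 times, with 3 for PBS, where Mup4 was lost, and 5 for meth. A filter for probes well above background on all arrays left no Mup probe. Counts over all tested probes, with meth in either direction, moved with the setting too. In females 215 of 28358 passed with a floor, 29 with normexp, 107 with the replicate block and 69 in trial 1 alone. Male counts were 314, 57, 257 and 43 in that order. The 2 groups alone gave 21 in females and 167 in males. By the t-tests 0 of all probes passed in females, and in males 0 paired and 18 unpaired. Where no probe at all passed, the 0 says nothing of the Mup probes. Male groups below background give bounds only, and 3 or 4 hearts a group limit all differences.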
